A study of Mus musculus with 10 samples.

Results

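The cyclins, the cyclin-dependent kinases (CDKs), their inhibitors, the CDC25 phosphatases, the retinoblastoma family and the E2F transcription factors were followed in the kidney cortex of mice with aristolochic acid nephropathy (AAN). The genes were chosen by symbol alone: every cyclin named by a letter other than K, every numbered CDK, the CDK inhibitors of the *Cdkn1* and *Cdkn2* families, *E2f1* to *E2f8*, *Cdc25a*, *Cdc25b*, *Cdc25c*, *Rb1*, *Rbl1*, *Rbl2*, *Wee1* and *Pkmyt1*, without *Cdkn1a*, *Ccng1* and *Ccng2*. This gave 61 genes of the 21792 measured. *Ccnb3* was not analysed here. The sham group held 4 wild-type mice given PBS. The AAN group held 6 wild-type mice that had 5 mg/kg of aristolochic acid, a plant toxin that forms DNA adducts, injected once into the peritoneum. Kidneys were taken at day 28, each mouse was its own library, and the mice are named by their tags (B607, B634, B636 and H249 in the sham group; A483, B614, B630, B639, B642 and B666 in the AAN group). By the methods, the mice of this nephropathy model were male C57BL/6 mice 8 weeks old and controls were littermates. The labels give no batch and no hour of sampling. Levels are in FPKM, sequenced fragments scaled to the length of the gene and to the size of the library.

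Cyclins are the regulatory subunits of the CDKs. Cyclin D with CDK4 or CDK6, and then cyclin E with CDK2, phosphorylate the retinoblastoma protein, which frees the E2F factors to drive the genes of S phase. Cyclin A and then cyclin B with CDK1 carry the cell through S phase, G2 and mitosis. WEE1 and PKMYT1 hold CDK1 inactive by phosphorylation, the CDC25 phosphatases remove that phosphate, and the INK4 and CIP/KIP proteins inhibit the kinases. In injured kidneys, tubule cells held at G2/M are known for making profibrotic factors, and the study followed this arrest by histone H3 phosphorylation in cycling cells and by DNA content, with the cyclin B1 protein set against cyclin D1 as a further measure. The RNA of both cyclins was therefore compared within each mouse, beside the other members.

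The members that changed were higher in AAN mice as deposited. All 7 cyclins, kinases and phosphatases of S phase, G2 and mitosis were among them, as were the kinase *Pkmyt1*, the cyclins *Ccnd2* and *Ccne1* of G1 and G1/S, the factors *E2f1* and *E2f8* and the inhibitors *Cdkn2a* and *Cdkn2b*. Of the 61 members, 59 had a mean of at least 0.1 FPKM and were tested with limma. *Ccna1*, the cyclin A of the germ line, and *Cdk15* were below it, at 0 in 9 of 10 and 8 of 10 mice. Of the 59, 7 had a sham mean under 0.1 FPKM and passed through the AAN mice alone (*Cdkn2a*, *Ccne1*, *Ccne2*, *Ccnb1*, *Cdc25c*, *E2f7* and *E2f8*). At an adjusted p of at most 0.05 and at least 2-fold, 34 members were higher and 0 were lower, where 35.8% of all genes tested were higher and 3.43% lower. With the adjusted p alone, 44 members were higher and 0 lower, and 0 were lower at an unadjusted p under 0.05. The share of all genes at these limits is not given here, so these counts cannot be set against it. A log2 fold change above 0 was found in 82.3% of all genes tested and in 98.3% of the members tested. The groups did not overlap in 39 of the 59 members with AAN above sham (40.3% of all genes tested) and in 0 with AAN below sham (3.25%). Among the 34, *Ccnt1* was the 1 whose groups overlapped. The 7 members that passed the filter through the AAN mice alone were all among the 34 and the 39. Their calls are therefore no separate support for the counts. With a mean of at least 1 FPKM required, 26 members were higher and 0 lower. That filter took out *Ccnb1*, *Ccne1*, *Ccne2*, *Ccnj*, *Cdc25c*, *Cdk14*, *E2f7* and *E2f8*, while *Cdkn2a* stayed. The members near the 2-fold limit turned on single mice. Without the sham mouse B634, *Cdkn1b*, *Ccnt1*, *Ccnt2* and *Cdk13* fell under it, with log2 fold changes of 0.85 to 0.97, and *Ccnt1* also did without B636, H249, A483 or B614 (0.95 to 0.99).

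The deposited values shifted between the groups as a whole, so each count needs that shift beside it. The median log2 fold change of all genes tested was 0.75 as deposited, and that of the 59 members was 1.15. Rescaling by the median of ratios, which divides each mouse's values by its median ratio, over genes, to the geometric mean of all mice, used size factors of 0.608 to 0.850 for sham mice and 1.12 to 1.34 for AAN mice. It left the median of all genes at 0.05 and that of the members at 0.47, with 18 members higher (18.8% of all genes) and 0 lower (10.7%). With the adjusted p alone, 25 were then higher and 3 lower, the 3 being *Cdk18*, *Cdk16* and *Ccni*. Here too the share of all genes at the adjusted p alone is not given. After quantile normalization the medians were -0.10 and 0.29, with 15 members higher (14.8% of all genes) and 1 lower (11.8%). The 1 lower member was *Cdc25a*, with a log2 fold change of -1.03 there against 0.12 as deposited and -0.58 by the median of ratios. The 18 and the 15 were all among the 34. Below, the second log2 fold change given for a gene is the one after the median of ratios. Counts of calls by role stand beside 35.8% of all genes higher as deposited and 18.8% after the median of ratios.

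**Figure D1:**
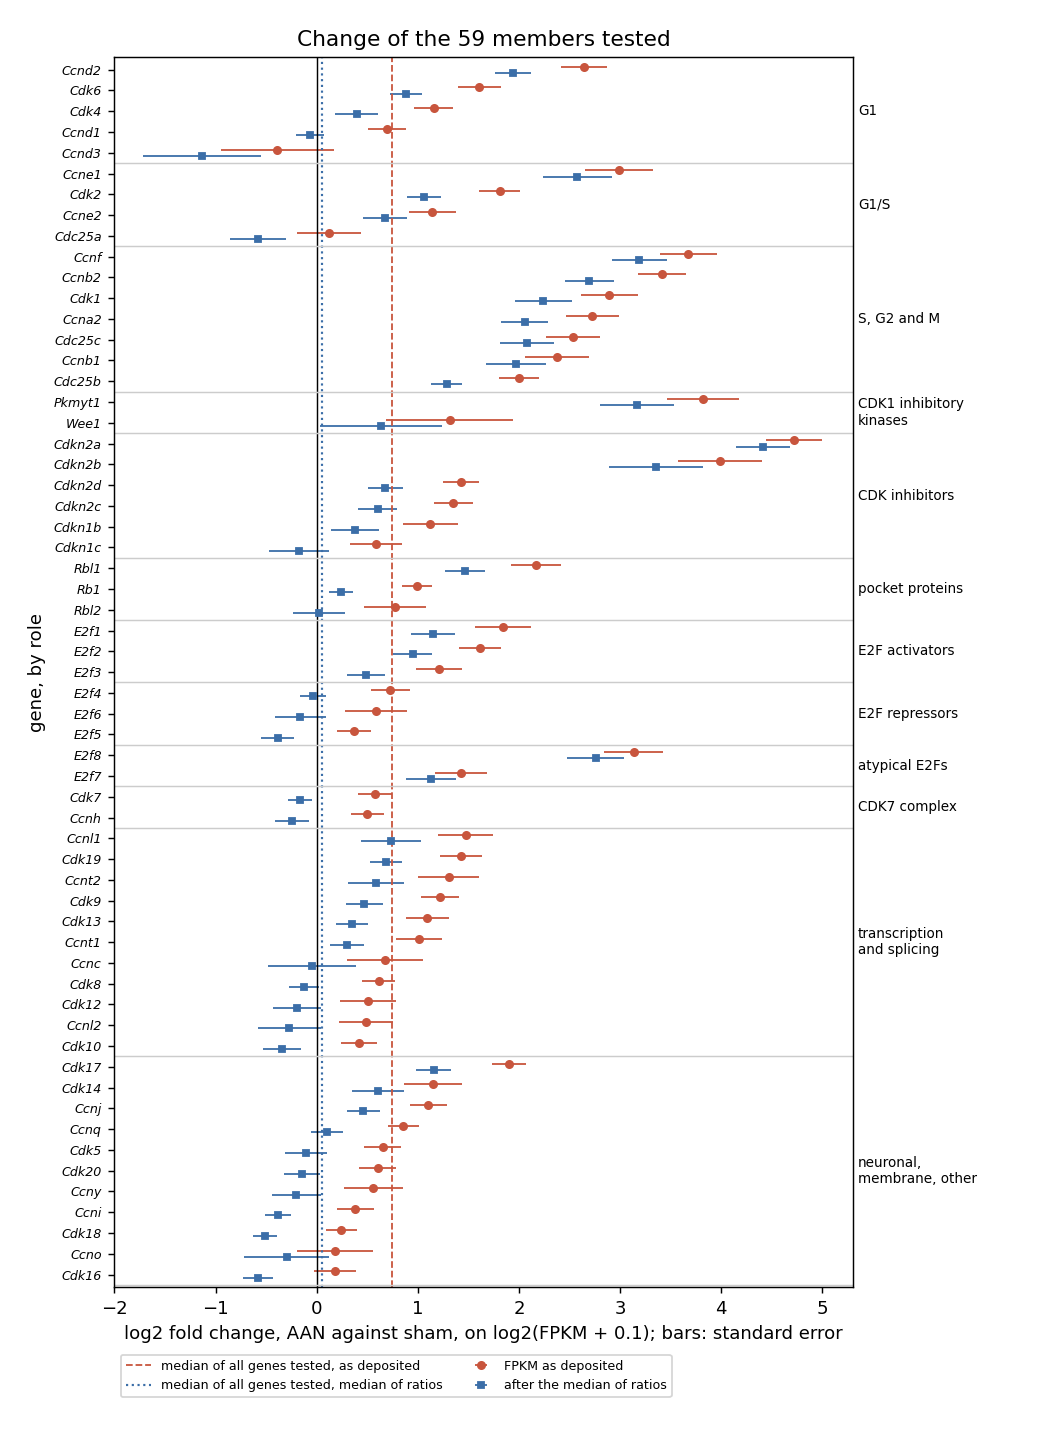
The log2 fold change of each of the 59 members tested, AAN against sham, on log2(FPKM + 0.1), as deposited (circles) and after the median of ratios (squares), with the standard error as bars and genes in order of role. The dashed and dotted lines mark the medians of all genes tested, 0.75 and 0.05, and the S, G2 and M genes lie to the right of both.

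Libraries were of similar depth, with 15.8 to 17.4 M fragments in the sham group and 13.4 to 16.5 M in the AAN group. The share of all FPKM in mitochondrial genes was 39.5% to 61.4% for sham mice, and for AAN mice 21.4% to 55.0%. The labels call the samples renal cortex cells, and the markers of the proximal tubule, its main cell type, summed to 1674 to 3793 FPKM (sham) and 533 to 1992 FPKM (AAN), with 4 of 7 lower as deposited and 6 of 7 after the median of ratios. Markers of immune cells, fibroblasts and injured tubule were higher. All 5 leukocyte markers were higher (6.80 to 12.1 FPKM summed in sham mice, 127 to 408 in AAN mice), as were 6 of 6 macrophage markers (34.3 to 53.1 against 539 to 1846 FPKM), 6 of 6 T cell markers (0.751 to 2.95 against 67.3 to 172 FPKM), 3 of 3 B cell markers tested of 4 (0.673 to 1.27 against 3.79 to 9.48 FPKM), 5 of 5 fibroblast markers (14.2 to 19.2 against 100 to 229 FPKM) and 5 of 5 markers of injured tubule (1.3 to 1.95 against 108 to 328 FPKM). None of these markers was at 0 in all mice of a group. Endothelial, thick limb and distal tubule, and podocyte markers gave 0 of 4, 0 of 4 and 0 of 3 calls as deposited. After the median of ratios 1 endothelial and 1 thick limb and distal tubule marker was lower. In bulk RNA, more cells of a type and more RNA per cell cannot be told apart, and the part of these cell types in the values of the cyclins and CDKs was not tested.

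All 7 cyclins, kinases and phosphatases of S phase, G2 and mitosis were higher in AAN mice, with log2 fold changes of 2.0 to 3.67, and all 7 were higher after the median of ratios and in each fit that left out 1 mouse. *Ccnb1* and *Cdc25c* passed the filter through the AAN mice alone, so their calls are no separate support for the count of 7. With 1 FPKM added before the log these 2 did not pass the 2-fold limit, and after quantile normalization *Cdc25b* did not. *Cdk1* (ENSMUSG00000019942, chr10:69335146-69352938 on GRCm38), the kinase of mitosis, stood at 0.217, 0.327, 0.255 and 0.375 FPKM in B607, B634, B636 and H249, and at 1.91 to 5.18 FPKM in AAN mice (median 2.44). The lowest AAN mouse was above the highest sham mouse by a wide margin, and B642 was the highest. The log2 fold change was 2.89 ± 0.28 (SE; adjusted p = 4.58e-06), and 2.24 after rescaling.

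*Ccnb1* (ENSMUSG00000041431, chr13:100778650-100786570), the cyclin B1 of the arrest ratio, was among the lowest members in sham mice, at 0.0426, 0.0235, 0.0226 and 0.0905 FPKM, and stood between 0.385 and 1.19 FPKM in AAN mice (median 0.585). The groups did not overlap, and the log2 fold change was 2.37 ± 0.32 (adjusted p = 5.74e-05, and 1.97 rescaled). The sham mean stands for at most 3.12 fragments a mouse, against 45.9 in AAN mice, so the size of this change depends on the constant added before the log: it was 0.67 with 1 FPKM added and 3.71 with 0.01 FPKM added. Of its 50-base windows, 23.4% also occur in other genes, among them the pseudogene *Ccnb1-ps*.

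*Ccnb2*, the other mitotic cyclin B, had more fragments behind it and the same direction. Its levels were 0.556, 0.819, 0.907 and 0.827 FPKM in sham mice and between 6.32 and 13.7 FPKM in AAN mice (median 9.92). The lowest AAN mouse, B614, was several times the highest sham mouse, and the log2 fold change was 3.41 ± 0.24 (adjusted p = 4.24e-07, and 2.70 rescaled). *Ccnf*, which as cyclin F is part of a ubiquitin ligase and binds no CDK, had the largest change of the role, from 0.203, 0.0407, 0.0196 and 0.137 FPKM to 1.66 to 2.99 FPKM (median 2.25). Its log2 fold change was 3.67 ± 0.28 (adjusted p = 7.58e-07, and 3.19 rescaled). *Ccna2*, the cyclin of S phase and G2, stood at 0.355, 0.231, 0.542 and 0.503 FPKM in sham mice and between 2.03 and 4.42 FPKM in AAN mice (median 3.17). The groups were again apart, with a log2 fold change of 2.73 ± 0.26 (adjusted p = 4.08e-06, and 2.06 rescaled). The phosphatases *Cdc25b* and *Cdc25c*, which activate CDK1, had log2 fold changes of 2.0 and 2.54.

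The bases before the start of 4 of these genes are printed because late cell cycle genes are known to carry a CHR element, often near CCAAT boxes, through which the DREAM complex and B-MYB act. The sequences are from the RefSeq promoter table on GRCm38.p6, all on the minus strand and 5′ to 3′. They end at the RefSeq start or, where annotated exons begin before it, at those exons. Capitals mark CHR (TTTGAA or TTCGAA), E2F (TTTGGCGC, TTTCGCGC or TTCCCGCC) and CCAAT motifs, searched on both strands, and none of these motifs holds another.
*Cdk1*, chr10:69352939-69353162: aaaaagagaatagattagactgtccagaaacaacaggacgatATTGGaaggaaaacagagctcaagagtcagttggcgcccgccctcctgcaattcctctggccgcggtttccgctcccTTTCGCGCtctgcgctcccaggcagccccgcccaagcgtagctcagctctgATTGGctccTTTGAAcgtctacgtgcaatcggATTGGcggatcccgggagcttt
*Ccnb2*, chr9:70421555-70421804: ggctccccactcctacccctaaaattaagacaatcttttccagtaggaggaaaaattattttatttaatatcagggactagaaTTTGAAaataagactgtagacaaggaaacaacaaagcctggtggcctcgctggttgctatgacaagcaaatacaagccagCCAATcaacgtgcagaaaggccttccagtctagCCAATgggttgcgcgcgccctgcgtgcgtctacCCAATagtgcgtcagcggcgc
*Ccnf*, chr17:24251485-24251659: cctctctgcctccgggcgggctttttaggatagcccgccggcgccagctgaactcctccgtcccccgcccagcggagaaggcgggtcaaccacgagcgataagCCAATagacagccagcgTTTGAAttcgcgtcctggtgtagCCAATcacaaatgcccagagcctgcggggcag
*Ccnb1*, chr13:100786571-100786736: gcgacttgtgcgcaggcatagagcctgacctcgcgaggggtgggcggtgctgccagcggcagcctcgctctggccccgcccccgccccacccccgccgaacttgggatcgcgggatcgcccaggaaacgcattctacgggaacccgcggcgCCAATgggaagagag
*Cdk1*, *Ccnb2* and *Ccnf* held CHR letters and CCAAT letters in these bases, *Cdk1* held an E2F motif as well, and *Ccnb1* held CCAAT letters without CHR letters. *Cdc25b*, of the same role and not printed, also held CCAAT letters without CHR letters. Of the 61 members, 45 had an entry in the table, with 51 promoters. Over the 250 bases before the start, 5 of the 14 promoters of members higher after the median of ratios held CHR letters, against 5 of the 37 promoters of the other members and 17.15% of all 32851 promoters. The 14 promoters belonged to 13 genes. The 5 were those of *Cdk1*, *Ccnb2*, *Ccnf*, *E2f8* and *Cdkn2b*, the last a CDK inhibitor gene. CCAAT letters were in 8 of the 14, in 16 of the 37 and in 33.85% of all, and E2F letters in 2 of the 14, in 2 of the 37 and in 2.48% of all. These are letter matches and no measure of binding.

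The cyclins and kinases of G1 were mixed: 3 of 5 were higher as deposited (*Ccnd2*, *Cdk6* and *Cdk4*), and *Ccnd2* alone after the median of ratios. *Ccnd1* (ENSMUSG00000070348, chr7:144929931-144939925), cyclin D1, was the second most abundant member in both groups by FPKM, at 37.4, 24.3, 32.1 and 31.8 FPKM in sham mice and between 39.0 and 62.1 FPKM in AAN mice (median 53.5). Every AAN mouse was above every sham mouse, but by little. The log2 fold change was 0.69 ± 0.19 (adjusted p = 0.00788), under the 2-fold limit and close to the median of all genes, and after the median of ratios its direction turned, to -0.07 ± 0.14 (adjusted p = 0.715). Of its exonic bases, 23.4% overlap *LTO1* on the opposite strand, and the use of strand in the counting is not stated.

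*Ccnd2*, cyclin D2, was low in sham mice, at 0.962, 0.444, 0.615 and 0.535 FPKM, and stood between 3.39 and 5.99 FPKM in AAN mice (median 4.38). The groups were well apart, with a log2 fold change of 2.64 ± 0.23 (adjusted p = 1.71e-06, and 1.94 rescaled). *Ccnd2* was below *Ccnd1* in FPKM in every mouse of both groups. *Cdk6*, a partner of the D cyclins, stood at 1.66, 0.929, 1.10 and 1.19 FPKM in sham mice and between 2.97 and 4.95 FPKM in AAN mice (median 4.03), with a log2 fold change of 1.61 ± 0.21 (adjusted p = 4.81e-05), and with 0.89 under the 2-fold limit after rescaling. *Cdk4* had a log2 fold change of 1.16 as deposited and 0.40 rescaled.

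*Ccnd3*, cyclin D3, was the 1 member tested with a fold change below 0 as deposited, and it is described because of its spread, after its values were seen. It stood at 2.45, 5.57, 5.93 and 2.12 FPKM in B607, B634, B636 and H249, and at 6.16, 4.26, 1.70, 1.27, 6.86 and 1.04 FPKM in A483, B614, B630, B639, B642 and B666. High and low mice were found in both groups. The log2 fold change was -0.39 ± 0.56 (adjusted p = 0.556) and after rescaling -1.13 (adjusted p = 0.136), and no alternative passed the limits. The annotation lists 21 transcripts for it.

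At the G1/S boundary 3 of 4 members were higher as deposited, *Ccne1*, *Cdk2* and *Ccne2*, and *Ccne1* and *Cdk2* after the median of ratios. *Ccne1* and *Ccne2* passed the filter through the AAN mice alone, so their calls are no separate support for these counts. *Ccne1*, cyclin E1, was listed at 0.0608, 0, 0.129 and 0.0323 FPKM in sham mice and between 0.559 and 1.66 FPKM in AAN mice (median 1.22). The groups did not overlap, and the log2 fold change was 2.99 ± 0.33 (adjusted p = 1.35e-05, and 2.58 rescaled). As for *Ccnb1*, the sham mean stands for few fragments, at most 2.46 a mouse. *Cdk2*, the partner of cyclins E and A, was well measured at 4.39, 2.44, 4.22 and 3.59 FPKM in sham mice and between 9.14 and 15.5 FPKM in AAN mice (median 13.0). Its log2 fold change was 1.81 ± 0.20 (adjusted p = 1.24e-05, and 1.06 rescaled). *Ccne2* had a log2 fold change of 1.14 and, after rescaling, of 0.68, and *Cdc25a*, the phosphatase of the G1/S kinases, had a log2 fold change of 0.12 ± 0.31 (adjusted p = 0.748).

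Genes of G2/M were set against genes of G1 within each mouse, as a difference of log2(FPKM + 0.1) values, which a scaling factor common to a mouse moves only through the added constant. The study reports its cyclin B1 to cyclin D1 ratio from protein of isolated tubules and of a tubule cell line. The values here are RNA of cortex with all its cell types, so they are not the same measure. *Ccnb1* minus *Ccnd1* was -8.04, -7.63, -8.04 and -7.39 in sham mice and between -6.73 and -5.27 in AAN mice. All 6 AAN mice were above all 4 sham mice. The means were -7.77 ± 0.32 (SD, n = 4) and -6.09 ± 0.49 (n = 6), a difference of 1.68 ± 0.26 (SE), with an exact two-sided permutation p of 0.00476, the smallest that the 210 labellings of the mice allow, and 0.0190 adjusted over the 4 pairs compared. *Ccnb1* passed the filter through the AAN mice alone, its own groups did not overlap, and all its sham levels lay under the added 0.1 FPKM. The p of this pair is therefore no support separate from the call of *Ccnb1*. With 1 FPKM added, which flattens *Ccnb1* at these levels, the difference was -0.00425 (exact permutation p = 0.976), and with 0.01 FPKM added it was 3.01. After the median of ratios it was 2.04, and after quantile normalization 0.83, with an adjusted exact permutation p of 0.114.

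*Cdk1* minus *Cdk2*, the kinase of mitosis against that of G1/S and S phase, was -3.83, -2.57, -3.61 and -2.96 in sham mice and between -2.61 and -1.28 in AAN mice. Of the AAN mice, 5 were above all sham mice, and B630 was just below the sham mouse B634. The difference was 1.08 ± 0.35 (exact permutation p = 0.00952, 0.0190 adjusted), but -0.02 with 1 FPKM added (exact permutation p = 0.929), and without the sham mouse B607 it was 0.89 with an adjusted exact permutation p of 0.0714. After quantile normalization it was 0.62 (adjusted exact permutation p = 0.165).

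The other pairs, between cyclins of cycling cells, did not pass the test. *Ccnb1* minus *Ccne1* was -0.06 ± 0.63 (SD, n = 4) in sham mice and -0.68 ± 0.39 (n = 6) in AAN mice, a difference of -0.61 ± 0.35 (exact permutation p = 0.0952, 0.127 adjusted). *Ccnb1* minus *Ccna2* was -1.79 ± 0.42 and -2.14 ± 0.29, a difference of -0.35 ± 0.24 (exact permutation p = 0.143, 0.143 adjusted). Both differences were below 0 on this scale, where all sham levels of *Ccnb1* lay under the added 0.1 FPKM. Without a constant, the AAN mean of *Ccnb1* was 15.4 times its sham mean, and that of *Ccna2* 7.98 times. With 0.01 FPKM added the first difference was -0.87 and the second turned to 0.72 (exact permutation p = 0.252 and 0.0571). The median of ratios left the second at -0.09 (exact permutation p = 0.686). With 1 FPKM added, which flattens *Ccnb1* at these levels, both passed the test, at -0.33 and -0.90. As a description without a test, the mean log2 level of the 6 G2/M members (*Ccnb1*, *Ccnb2*, *Ccnf*, *Cdk1*, *Cdc25b* and *Cdc25c*) minus that of the 8 members of G1 and G1/S (*Ccnd1*, *Ccnd2*, *Ccnd3*, *Ccne1*, *Ccne2*, *Cdk2*, *Cdk4* and *Cdk6*) was -2.64 to -2.07 for sham and -1.29 to -0.85 for AAN mice, a difference of means of 1.36.

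**Figure D2:**
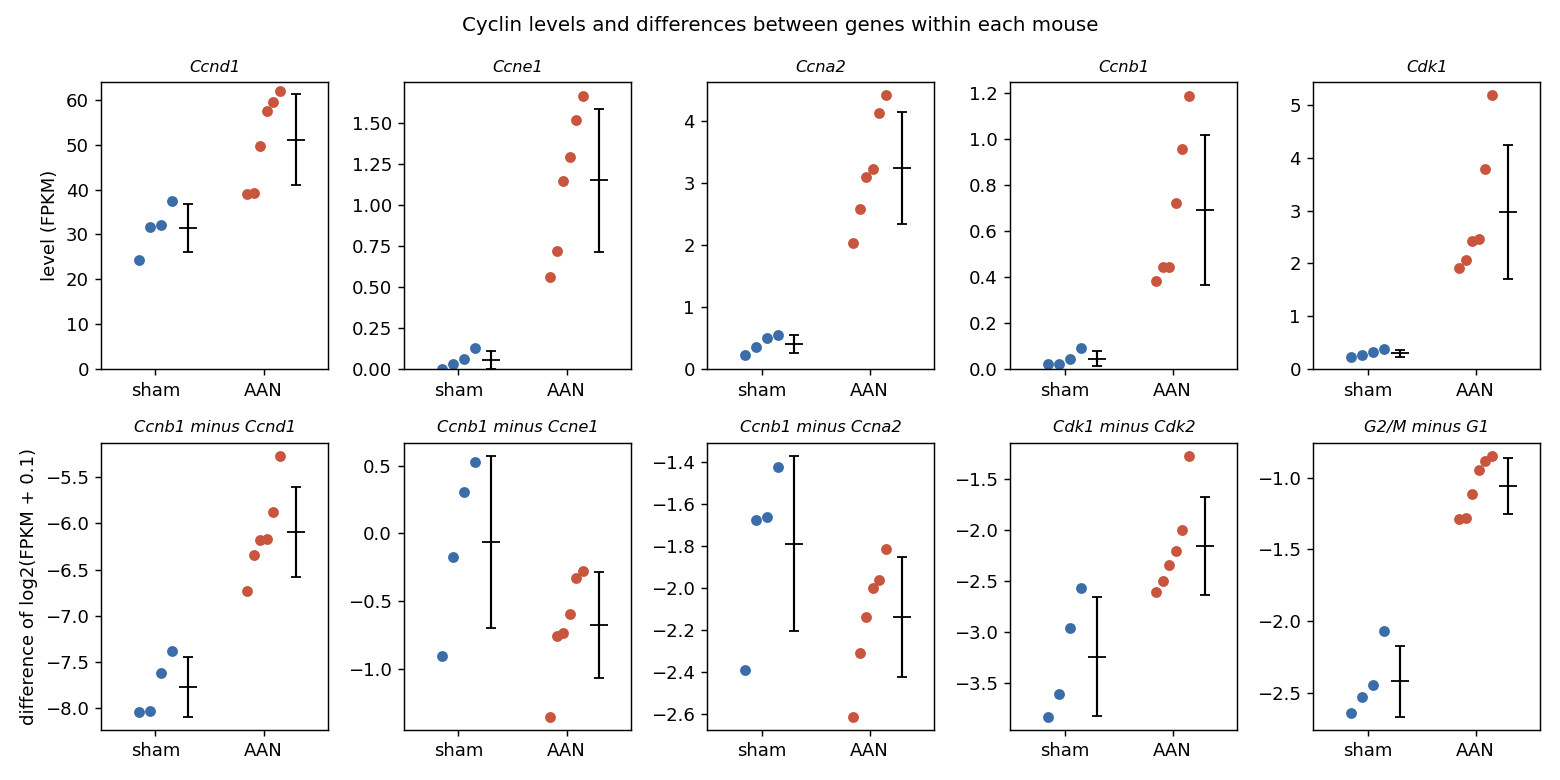
Top, the level in FPKM of 4 cyclins and *Cdk1* in each mouse, with the mean and SD as a bar; bottom, the 4 pair differences and the G2/M minus G1 value on the log2(FPKM + 0.1) scale. *Ccnb1* minus *Ccnd1* is above every sham mouse in all 6 AAN mice, while *Ccnb1* minus *Ccne1* and *Ccnb1* minus *Ccna2* overlap between the groups.

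Of the kinases that hold CDK1 inactive, *Pkmyt1* was higher in AAN mice and *Wee1* did not pass the test. *Pkmyt1*, which encodes the membrane-bound MYT1, stood at 0.196, 0.186, 0.566 and 0.387 FPKM in sham mice and between 2.50 and 8.38 FPKM in AAN mice (median 6.17). The lowest AAN mouse was B614, and the groups were far apart, with a log2 fold change of 3.82 ± 0.35 (adjusted p = 3.07e-06, and 3.17 rescaled). As deposited with 0.1 FPKM added this was above the change of *Ccnf*, which after rescaling was the larger of the pair.

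*Wee1*, the nuclear kinase, is described for its spread, after its values were seen. It stood at 3.74 FPKM in the sham mouse B607 and at 0.260, 0.469 and 0.937 FPKM in B634, B636 and H249, and at 7.65 FPKM in the AAN mouse B614 and 1.23 to 2.61 FPKM in the other 5. In each group 1 mouse was several times the rest, and the groups overlapped through B607 alone. The log2 fold change was 1.31 ± 0.63 (adjusted p = 0.0880) and after rescaling 0.63 (adjusted p = 0.418). Without B607 it was 1.99 (adjusted p = 0.00672), and without B607 and B614 it was 1.64 (adjusted p = 0.00220), while after the median of ratios without B614 and B634 it turned to -0.13 (adjusted p = 0.845). *Wee1* is known as an output of the circadian clock. *Tef*, another clock output, was also highest in B607 (8.12 FPKM, the others at 1.89 to 4.91) and in B614 (9.40 FPKM, the others at 1.84 to 3.70). *Dbp*, *Nr1d1* and *Nr1d2* were higher in AAN mice, *Dbp* at 3.27 to 14.3 FPKM against 0.635 to 1.10 FPKM, while *Arntl*, *Npas2*, *Per2* and *Cry1* gave 0 calls as deposited and 4 of 4 lower after the median of ratios. These 8 genes were picked after their values were seen, and the part of the clock in the *Wee1* values was not tested. B607 and B614 were each the highest of their group in 2 of the 4 clock-controlled genes (*Tef* and *Nr1d2*, not *Dbp* and *Nr1d1*). They were so in 0 of the 4 core clock genes (*Arntl*, *Npas2*, *Per2* and *Cry1*). Other genes shared this: the pair of mice was the highest of both groups in 11 of the 59 members and in 20.2% of all genes tested, among them 6 of the 7 proximal tubule markers, such as *Lrp2* at 189 FPKM in B607 and 70.0 FPKM in B614.

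Among the CDK inhibitors, 5 of 6 were higher as deposited and *Cdkn2a* and *Cdkn2b* after the median of ratios. The pair lie next to each other on chromosome 4. *Cdkn2a* passed the filter through the AAN mice alone, so its call is no separate support for these counts. *Cdkn2a* (ENSMUSG00000044303, chr4:89274471-89294653) was listed at 0 in all 4 sham mice, where 3 fragments over its longest transcript would be worth 0.211 FPKM, and at 2.85, 1.18, 2.48, 2.87, 2.88 and 3.79 FPKM in A483, B614, B630, B639, B642 and B666. All AAN mice were above all sham mice, and B614 stood below the other 5 (adjusted p = 1.81e-07; 7.67e-07 after the median of ratios). The gene encodes both the CDK4 and CDK6 inhibitor p16INK4a and, in another frame, p19ARF, an activator of p53, and 1 value per gene cannot tell them apart.

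*Cdkn2b* (ENSMUSG00000073802, chr4:89306299-89311039), the p15INK4b inhibitor of CDK4 and CDK6 and a known target of TGF-β, stood at 0.205, 0.544, 0.0436 and 0.653 FPKM in sham mice and between 4.30 and 8.97 FPKM in AAN mice (median 5.64). The groups were far apart, with a log2 fold change of 3.98 ± 0.42 (adjusted p = 7.89e-06, and 3.35 rescaled). The other INK4 genes, *Cdkn2c* and *Cdkn2d*, were already expressed in sham mice (2.63 to 5.39 FPKM over both) and had log2 fold changes of 1.35 and 1.43, and of 0.60 and 0.68 after rescaling, under the 2-fold limit. *Cdkn1b*, which encodes p27, had a log2 fold change of 1.12 (0.38 rescaled, adjusted p = 0.212). *Cdkn1c*, which encodes p57 and is known from podocytes, had a log2 fold change of 0.58 ± 0.26 (adjusted p = 0.0664) and turned to -0.17 after rescaling.

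For comparison, *Cdkn1a*, which encodes the p53 target p21 that the study ties to G2/M arrest, stood at 1.91 to 3.26 FPKM in sham mice and between 24.4 and 61.7 FPKM in AAN mice, with a log2 fold change of 3.94 ± 0.27 (adjusted p = 3.65e-07). By FPKM it was the most abundant CDK inhibitor in AAN mice, above *Cdkn1c* at 10.6 to 21.0 FPKM, which was the most abundant in sham mice at 5.92 to 11.9 FPKM.

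**Figure D3:**
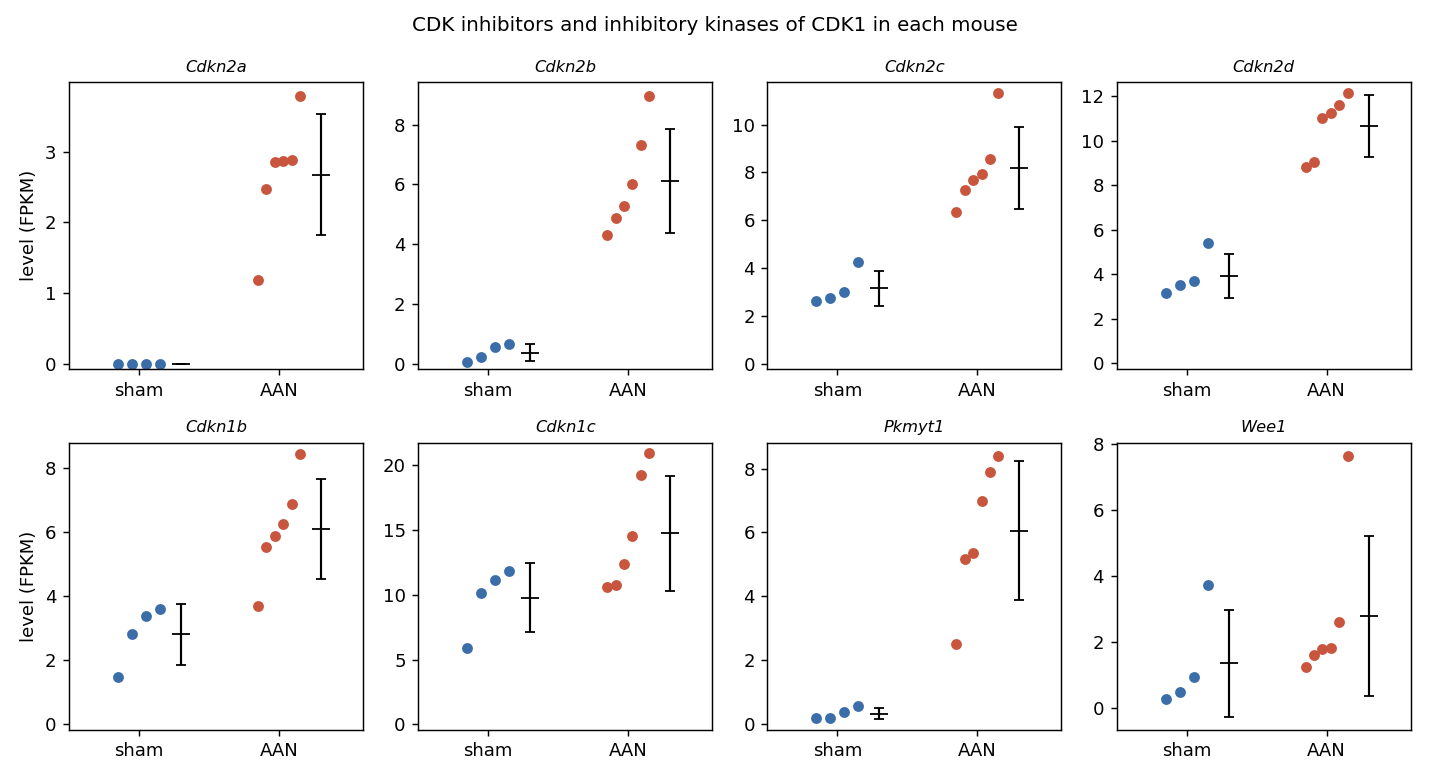
The level in FPKM of the 6 CDK inhibitors among the members and of the kinases *Pkmyt1* and *Wee1* in each mouse, with the mean and SD as a bar. *Cdkn2a* is at 0 in all sham mice, *Cdkn2b* and *Pkmyt1* are far apart between the groups, and *Wee1* has 1 high mouse in each group.

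Of the pocket proteins, *Rbl1* was higher and *Rb1* and *Rbl2* were not past the limits. *Rbl1*, which encodes p107 and is itself an E2F target, stood at 1.0, 0.349, 0.827 and 0.921 FPKM in sham mice and between 3.08 and 4.23 FPKM in AAN mice (median 3.69). The groups did not overlap, and the log2 fold change was 2.17 ± 0.25 (adjusted p = 1.57e-05, and 1.47 rescaled). *Rb1*, the retinoblastoma gene, had a log2 fold change of 0.99 ± 0.15 (adjusted p = 0.000127), just under the 2-fold limit, and 0.24 rescaled. It passed the limit without B607, H249, B630 or B642, at up to 1.06. *Rbl2*, which encodes the p130 of resting cells, had a log2 fold change of 0.77 ± 0.31 (adjusted p = 0.0453) and 0.03 rescaled, and it passed the limit without the sham mouse B607 (1.09).

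Among the E2F factors, the calls differed by class as deposited. The atypical factors *E2f7* and *E2f8* passed the filter through the AAN mice alone, so their calls are no separate support for this. All 3 activators were higher as deposited and *E2f1* alone after the median of ratios, 0 of the 3 repressors *E2f4*, *E2f5* and *E2f6* was, and both atypical factors were in either case. After quantile normalization *E2f1* (0.73, adjusted p = 0.0190) and *E2f7* (0.39, adjusted p = 0.203) did not pass the limits either, and *E2f8* was the 1 E2F that did. *E2f7* also fell under the 2-fold limit with 1 FPKM added (0.28) and missed both limits against the median of all genes (0.68, adjusted p = 0.0553). *E2f1* stood at 0.987, 0.404, 0.557 and 0.893 FPKM in sham mice and between 1.72 and 3.53 FPKM in AAN mice (median 2.90), with a log2 fold change of 1.84 ± 0.28 (adjusted p = 0.000145, and 1.15 rescaled). *E2f2* stood at 0.654, 0.387, 0.323 and 0.434 FPKM in sham mice and between 1.29 and 1.94 FPKM in AAN mice (median 1.52), with a log2 fold change of 1.62 ± 0.21 (adjusted p = 4.25e-05, and 0.95 rescaled). In both, the lowest AAN mouse was above the highest sham mouse.

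*E2f8* and *E2f7*, which repress E2F targets late in S phase, were close to absent in sham mice. *E2f8* was listed at 0.0274, 0, 0.0486 and 0.0485 FPKM in sham mice and between 0.509 and 1.63 FPKM in AAN mice (median 1.04), with a log2 fold change of 3.13 ± 0.29 (adjusted p = 3.30e-06, and 2.76 rescaled). *E2f7* stood at 0.0623, 0.00491, 0.0142 and 0.0331 FPKM in sham mice and between 0.156 and 0.350 FPKM in AAN mice (median 0.261), with a log2 fold change of 1.43 ± 0.26 (adjusted p = 0.000590, and 1.13 rescaled). Both had non-overlapping groups, on sham means that stand for at most 2.81 and 4.36 fragments a mouse. The repressor *E2f4*, the most abundant E2F by FPKM, had a log2 fold change of 0.73 ± 0.19 as deposited and turned to -0.03 rescaled.

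The cyclins and kinases that work in transcription gave calls as deposited and 0 after the median of ratios. The CDK7 complex, which activates other CDKs and works in transcription, gave 0 of 2 calls, with log2 fold changes of 0.50 for *Ccnh* and 0.58 for *Cdk7*, which turned to -0.25 and -0.17 after rescaling. Of the 11 members for transcription and splicing, 6 were higher as deposited (35.8% of all genes) and 0 after the median of ratios (18.8%). Their median log2 fold change was 1.01 and 0.30. *Ccnl1*, cyclin L1 of the spliceosome, had the largest value, from 1.24, 1.51, 2.11 and 1.58 FPKM to 2.33 to 6.71 FPKM (median 4.96), with a log2 fold change of 1.47 ± 0.27 (adjusted p = 0.000627, and 0.74 rescaled). *Cdk19*, of the Mediator kinase module, stood at 3.40, 1.65, 1.78 and 2.05 FPKM in sham mice and between 4.62 and 6.61 FPKM in AAN mice (median 6.19), with a log2 fold change of 1.43 ± 0.21 (adjusted p = 0.000108, and 0.69 rescaled). Neither group pair overlapped.

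Of the remaining 11 members tested, 3 were higher as deposited (*Cdk17*, *Cdk14* and *Ccnj*), where 35.8% of all genes were. *Cdk17* was the 1 after the median of ratios (18.8% of all genes). *Cdk17*, a PCTAIRE kinase, was at 2.27, 2.25, 2.33 and 2.38 FPKM in the sham mice, the tightest of the members there, and at 6.19 to 11.1 FPKM in AAN mice (median 9.30). Its log2 fold change was 1.90 ± 0.17 (adjusted p = 2.26e-06, and 1.16 rescaled). Its relatives *Cdk16* and *Cdk18* had log2 fold changes of 0.18 and 0.24 as deposited and turned to -0.58 (adjusted p = 0.00636) and -0.51 (adjusted p = 0.00423) after rescaling. *Cdk14* stood at 0.319, 0.109, 0.138 and 0.160 FPKM in sham mice and between 0.331 and 0.917 FPKM in AAN mice (median 0.473), with a log2 fold change of 1.15 ± 0.28 (adjusted p = 0.00415, and 0.61 rescaled, and -0.08 by quantile normalization). The lowest AAN mouse of *Cdk14* was barely above the highest sham mouse, and without B614 the change was 0.998, under the limit.

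By level, the leading members were the same in both groups and several lower ones moved in rank. *Ccni*, *Ccnd1* and *E2f4* led the members by mean FPKM in both groups, in that order, with *Ccni* at 49.2 FPKM in sham mice and 63.8 FPKM in AAN mice. *Ccnb2* went from rank 40 to rank 16, *Pkmyt1* from 48 to 26, *Cdkn2b* from 47 to 24 and *Cdk1* from 49 to 39, while *Ccnd3* went from 16 to 37. Within the AAN group, B666 was the highest mouse in 13 of the 34 higher members and B642 in 10, and B614 was the lowest in 17 and B630 in 13. Mitochondrial genes took 33.0% of all FPKM in B666, 21.4% in B642, 34.1% in B614 and 55.0% in B630. B614 also stood apart in cell markers: of the AAN mice it had the lowest sums of leukocyte, T cell, B cell, macrophage, fibroblast and injured tubule markers and the highest of proximal tubule (1992 FPKM), thick limb and distal tubule (2439 FPKM), podocyte and endothelial markers. The part of either in the order was not tested.

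**Figure D4:**
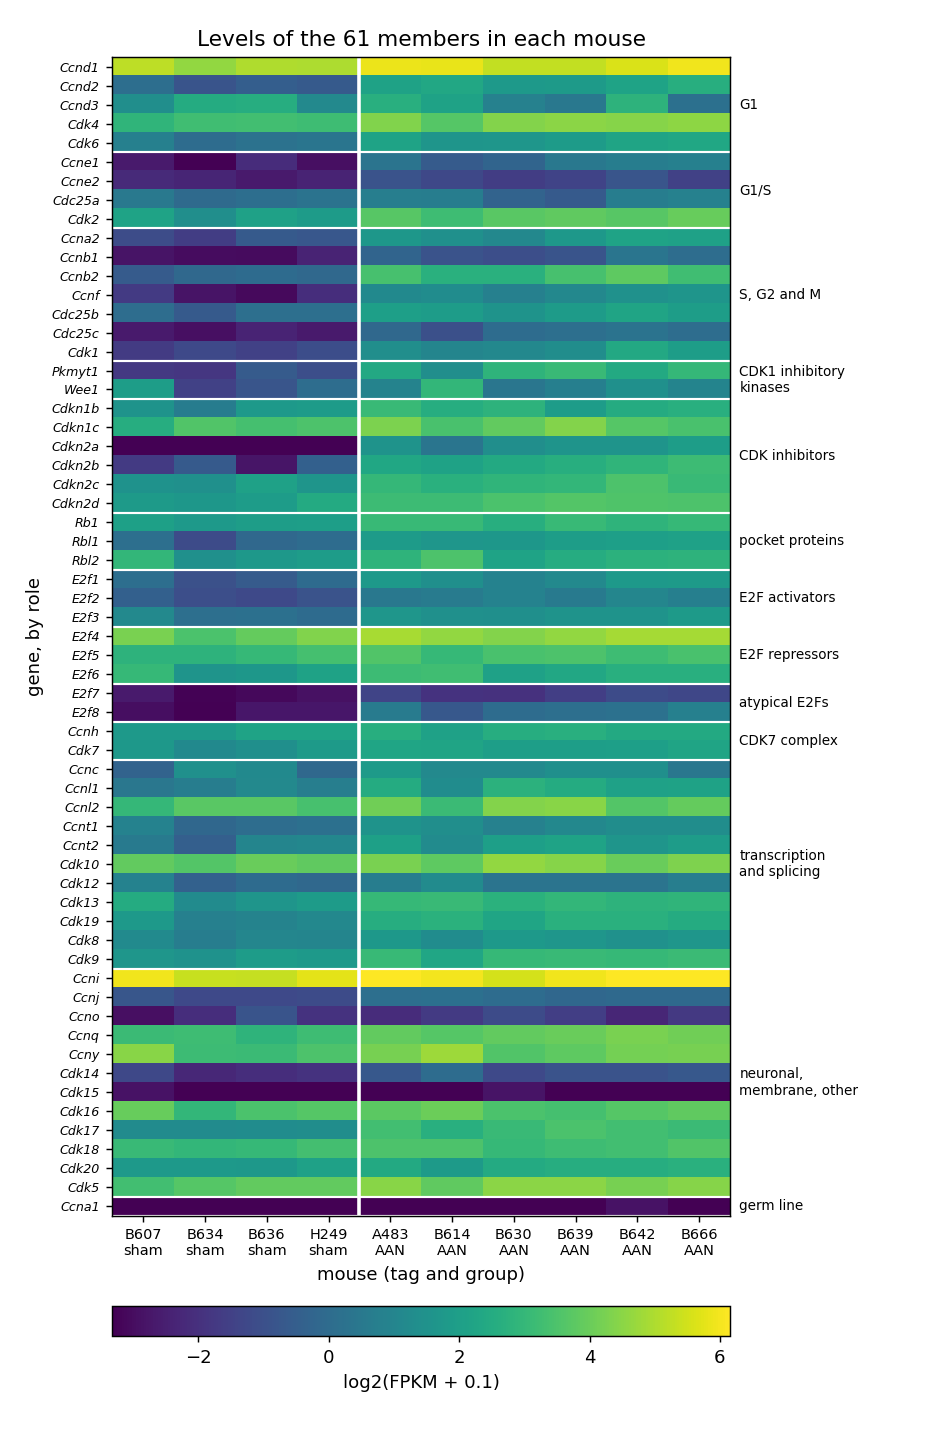
The level of each of the 61 members in each of the 10 mice, as log2(FPKM + 0.1) by colour, with genes in order of role and the sham mice left of the white line. The S, G2 and M genes are dark in the 4 sham mice and light in the 6 AAN mice, while *Ccnd1*, *E2f4* and *Ccni* are light in all.

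The genes around the members in the cycle were also counted. All 19 further mitosis genes were higher as deposited and after the median of ratios, with a median log2 fold change of 2.94 and 2.36. *Mki67*, the marker of cycling cells among them, stood at 0.244 to 0.421 FPKM in sham mice and between 3.55 and 7.25 FPKM in AAN mice, with a log2 fold change of 3.69 ± 0.22 (adjusted p = 1.81e-07). Of 18 further S phase genes, 15 were higher as deposited and 11 after rescaling. *Pcna*, the replication clamp, had a log2 fold change of 1.71 ± 0.23 (adjusted p = 6.34e-05, and 0.96 rescaled). Of 7 CDK partners and degradation factors, 5 were higher as deposited and 4 after rescaling (*Cks1b*, *Skp2*, *Fbxo5* and *Cdkn3*). The DREAM and MuvB subunits gave 4 of 9 and 0 of 9, where 35.8% and 18.8% of all genes were higher. The checkpoint kinases gave 3 of 4 and 1 of 4, the 1 being *Chek1* with a log2 fold change of 2.09 as deposited and 1.61 rescaled.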

How the data were processed

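Kidney cortex RNA of 10 mice (4 sham, 6 AAN, day 28) was measured by RNA-seq. The authors aligned the reads with Hisat2 2.0.4 to GRCm38.p4, and Stringtie 1.3.0 gave FPKM per known gene. The deposited values are these FPKM for 21792 Ensembl genes per mouse, with no fragment counts. The use of strand and the annotation release are not given in the sources used here. Symbols, positions and overlaps came from GENCODE mouse release M21 on GRCm38, which names 21650 of the genes.

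The test of the study needs counts, so limma 3.58.1 in R 4.3.3 (lmFit, eBayes with trend and robust, two-sided) was run on log2(FPKM + 0.1) of the 17129 genes whose mean reached 0.1 FPKM. Adjusted p-values are Benjamini-Hochberg values over these genes, and a call needs 0.05 or less and at least a 2-fold change (2 or more, or 0.5 or less). Fold changes are on this log2 scale, which understates those of low genes. Pair differences were tested exactly over all 210 labellings of the mice (smallest p 0.00476), adjusted over the 4 pairs.

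Low FPKM values in genes with 1 transcript were whole multiples of 1 fragment (95.6% to 97.4% within 0.05 of a whole number), which gave depths of 13.4 to 17.4 M fragments. Fragments per gene are upper estimates from the exonic length, and 0 allows up to 3; both cover counting error only. The sources do not say which mice shared a litter or cage. The p-values treat the mice as independent, which could not be checked.

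The members, the roles and the other lists were chosen with earlier results of these data known. Values per mouse were given for the genes of the pairs and, in each role, for the 2 called members with the largest change. Alternatives were pseudocounts of 1 and 0.01, other filters, the median of ratios, quantile normalization, limma without trend and robust, no fold change limit, changes against the median of all genes, each mouse left out, and subsets of the mice. Both tests were checked on simulated data. Tables and figures were made with matplotlib 3.10.9, scipy 1.17.1, pandas 2.3.3 and numpy 2.4.6 in Python 3.11.15.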

Additional observations from a re-analysis of the deposited data

Results flagged for a closer look

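*Cdkn2a* in the AAN mouse B614 stood apart from the other AAN mice, at 0.35 on the log2(FPKM + 0.1) scale, or 1.18 FPKM, against 2.48 to 3.79 FPKM in the other 5. Its gap to the nearest mouse was 0.629 of the range of the group, past the 95% limit of Dixon's test for 6 samples. Of 54 groups of values examined, 1 held such a mouse, where chance alone gives 2.7. B614 was also the lowest AAN mouse in 17 of the 34 higher members, and of the AAN mice it had the lowest summed leukocyte (127 FPKM), macrophage (539 FPKM), fibroblast (100.4 FPKM) and injured tubule (108 FPKM) markers and the highest proximal tubule markers (1992 FPKM). Their part in the *Cdkn2a* value was not tested.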

How the results depend on the processing

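Of 34 members higher in AAN mice, 22 were called with 1 FPKM added before the log, 18 after the median of ratios (also without B614 and B634, a setting chosen after the data were seen), 15 after quantile normalization and 17 when changes were taken against the median of all genes; all of these were among the 34. A required mean of at least 1 FPKM gave 26. Leaving out 1 mouse gave 30 to 37, and the count of lower members was 0 in all settings but quantile normalization, which gave 1. Of all genes tested, 35.8% were higher as deposited, 18.8% after the median of ratios and 14.8% after quantile normalization. For the other settings the share of all genes is not given here, so those counts cannot be set against it.

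Leaving out 1 mouse kept *Ccnb1* minus *Ccnd1* at 1.52 to 1.81, *Cdk1* minus *Cdk2* at 0.889 to 1.31, *Ccnb1* minus *Ccne1* at -0.894 to -0.418 and *Ccnb1* minus *Ccna2* at -0.552 to -0.230. Without the sham mouse B607, *Cdk1* minus *Cdk2* (0.89) missed the threshold, and without the sham mouse B636, *Ccnb1* minus *Ccne1* (-0.89, adjusted exact p = 0.0238) and *Ccnb1* minus *Ccna2* (-0.55, adjusted exact p = 0.0317) passed it. With 1 FPKM added, *Ccnb1* minus *Ccnd1* turned to -0.00425 and *Cdk1* minus *Cdk2* to -0.0198, *Ccnb1* minus *Ccne1* and *Ccnb1* minus *Ccna2* passed the threshold at -0.33 and -0.90, and the G2/M minus G1 value was 0.51. With 0.01 FPKM added, *Ccnb1* minus *Ccna2* turned to 0.72 and the G2/M minus G1 value was 1.74. After quantile normalization *Ccnb1* minus *Ccnd1* was 0.83 and *Cdk1* minus *Cdk2* 0.62, neither past the threshold, and the G2/M minus G1 value was 1.09. With the B tags alone both missed it at 1.83 and 1.22, and without B607 and B614, chosen after the data were seen, at 1.72 and 0.90, while without B614 and B634 both passed it at 1.86 and 1.32 (adjusted exact p = 0.0357 each). In each of these the smallest exact p is 0.0179. After the median of ratios *Ccnb1* minus *Ccna2* was -0.0871 against -0.351. The causes of these changes were not tested.

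Direction was counted for the genes of the pairs and the called members with the largest change in each role. Among these, *Ccnd1* turned after the median of ratios (-0.0693) and against the median of all genes (-0.0543), and *Cdk14* after quantile normalization (-0.0805). In the same genes, 431 other values under alternatives kept their direction and side of the threshold, and 23 lost the call. Members outside this set were not in these counts. Those that also turned after the median of ratios included *Cdkn1c*, *E2f4*, *Ccnh*, *Cdk7*, *Cdk16*, *Cdk18* and *Cdc25a*. Genes with few fragments in sham mice (*Ccnb1*, *Ccne1*, *E2f7*, *E2f8*) limit what depth can show of the size of a change. No paired analysis was possible because no tag occurs in both groups.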
